A study of Mus musculus with 4 samples.

Results

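Müller glia are the radial glial cells that span the retina and keep its extracellular fluid in order. They take up glutamate from synapses and convert it to glutamine, move water and potassium from active neurons towards the vessels and the vitreous, buffer pH, and carry lipids. Their intermediate filaments are the classic histological sign of a retina under stress. The 10 genes described here encode parts of these functions: glutamine synthetase (Glul) and the glutamate transporter GLAST (Slc1a3), the water channel aquaporin-4 (Aqp4), the inward-rectifier potassium channel Kir4.1 (Kcnj10), the membrane-bound carbonic anhydrase XIV (Car14), the secreted proteins apolipoprotein E (Apoe), clusterin (Clu) and Dickkopf-3 (Dkk3), and the filament proteins vimentin (Vim) and GFAP (Gfap). They were chosen by name and looked up in a table of transcript isoforms by retinal cell class. All 10 were found among its 13452 Ensembl genes, with 20 of its 44325 isoforms and 486919 of its 149645836 counts.

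The isoforms came from single-cell cDNA of mouse retina sequenced as long reads on a nanopore PromethION, so that 1 read can cover a transcript from end to end. All animals were male wild-type C57BL6/J mice, and retinas were dissociated with papain. Of the 4 libraries, 2 had no enrichment, 1 of them from postnatal day 40 and the other with no age in its label. The library with CD73 enrichment was from postnatal week 8, and that with CD90.2 enrichment was from postnatal month 4. Photoreceptors carry CD73 on their surface, and CD90.2 is carried by neurons, chiefly ganglion cells. The protocols describe magnetic columns that removed cells carrying CD73 and retained cells carrying CD90.2, while the design text speaks of sorting by flow cytometry. The labels do not say how many animals were pooled for a library.

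The counts were deposited in 6 columns, 1 for each cell class: amacrine cells, bipolar cells, cones, Müller glia, rods and ganglion cells. No column names a library, so a class is 1 pooled value, the enrichments cannot be compared, and no difference between classes was tested. Column totals ran from 3509890 counts for ganglion cells to 55437340 for rods, with 6133094 for Müller glia. Levels are given as counts per 1000000 counts of the column (CPM). The exact Poisson 95% intervals of levels and the exact Clopper-Pearson 95% intervals of shares cover counting error only. A count of 0 is given with the level that 3 counts would make, which was 0.489 CPM in Müller glia and 0.855 CPM in ganglion cells. In pooled columns, fewer cells of a type and less RNA per cell cannot be told apart.

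The column labelled Müller glia was checked against marker genes that are not among the 10. All 6 Müller glia markers were highest there, with a summed level of 6476 CPM against 108 to 223 CPM in the neuron columns. Rlbp1, which encodes the retinaldehyde-binding protein of Müller glia, stood at 1736 CPM and Prdx6, a peroxiredoxin, at 3822 CPM. The summed markers of other non-neuronal cells were also highest in that column, and none of the 6 columns is labelled for those cells. The 8 microglia markers summed to 1923 CPM in Müller glia and 863 CPM in rods. The pigment epithelium list summed to 8576 CPM, nearly all of it Ttr at 8443 CPM, while Best1 was at 0. Other genes of the list were also counted there, with Rpe65 at 58.4 CPM, 75.3 times (54.7 to 106) above rods, Mlana at 51.4 CPM and Lrat at 21.4 CPM. All 17 counts of Pmel were in that column, and 4 of the 5 genes of the list with at least 20 counts in a class were at least 2-fold above the next class. The 3 pericyte markers in the table summed to 257 CPM, the 3 endothelial ones to 28.9 CPM and the 3 astrocyte ones to 60.3 CPM, and the astrocyte markers Pax2 and Fgfr3 had no isoform in the table. Astrocytes express Gfap, Aqp4, Slc1a3, Glul, Apoe and Clu, among other genes, and microglia express Apoe. These cells can therefore be sources of the same transcripts. The part of astrocytes, microglia, pericytes, endothelial cells and pigment epithelium in the levels below was not tested for any of the 10 genes.

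Summed over the 10 genes, 5.27% (5.25 to 5.29%) of all Müller glia counts belonged to this set. The corresponding shares were 0.150% in rods, 0.118% in amacrine cells, 0.0837% in cones, 0.0583% in bipolar cells and 0.0103% in ganglion cells. Apoe alone held 3.93% of the Müller glia column. The level was highest in Müller glia for 9 of the 10 genes, where 18% of the 12099 genes with at least 20 counts in a class were highest, and these 9 were at least 2-fold above the next class, where 9.65% of the 12099 were. The median ratio of Müller glia to the next class was 29.3 over the 10 genes and 0.341 over the 12099. The exception was Dkk3, which was highest in amacrine cells.

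**Figure D1:**
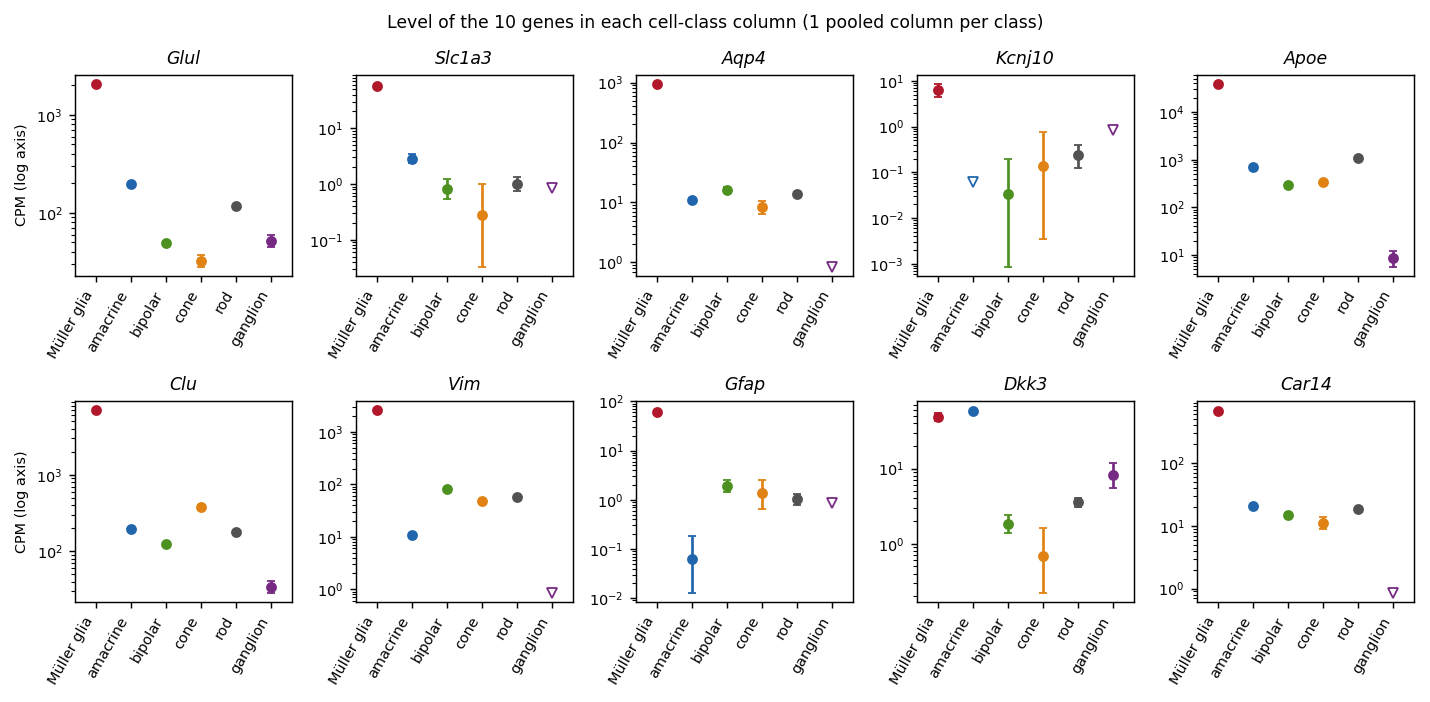
Level of each gene in the 6 columns in CPM on a log axis, with exact Poisson 95% intervals that cover counting error. An open triangle marks a class with 0 counts, drawn at the level of 3 counts. Müller glia stand highest in 9 panels, and in the Dkk3 panel amacrine cells do, at 58.1 CPM against 48.8 CPM, an order that turns round with scaling by the median of ratios.

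Glutamate uptake and its conversion to glutamine were read from Slc1a3 and Glul. Glul (ENSMUSG00000026473, chr1:153899944-153909723, plus strand, mouse build GRCm38) encodes the enzyme that joins glutamate and ammonia into glutamine. Its level was 2049 CPM (2013 to 2085) in Müller glia, 195 CPM in amacrine cells, 117 CPM in rods, 51.9 CPM in ganglion cells, 49.3 CPM in bipolar cells and 32.3 CPM in cones. Müller glia were therefore 10.5 times (10.2 to 10.8) above amacrine cells, the smallest such ratio among the 9 genes. The ganglion and bipolar intervals overlapped, and the other neighbours in this order did not. All 30321 counts fell on 1 annotated isoform of 7 exons, which holds the whole coding sequence of 373 codons, although the GENCODE M21 annotation has 5 transcripts of Glul.

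Slc1a3 (ENSMUSG00000005360, chr15:8634124-8710764, minus strand) encodes the sodium-driven transporter that clears glutamate into glia. It stood at 56.6 CPM (50.8 to 62.9) in Müller glia, 2.86 CPM in amacrine cells, 1.01 CPM in rods, 0.827 CPM in bipolar cells and 0.274 CPM (2 counts) in cones, and had 0 counts in ganglion cells. Müller glia were 19.8 times (16.2 to 24.3) above amacrine cells. Below amacrine cells, the intervals of neighbouring classes overlapped. The amacrine column differed in which isoforms made up this level. The leading isoform, of 10 exons and with the whole coding sequence of 543 codons, took 341 of 347 counts in Müller glia (98.3%, 96.3 to 99.4%), 24 of 24 in bipolar cells and 56 of 56 in rods. In amacrine cells it took 69 of 138 (50%, 41.4 to 58.6%). Another 42 amacrine counts (30.4%, 22.9 to 38.8%) lay on an unannotated isoform with 0 counts in every other column. An annotated non-coding transcript took 15 counts and a further unannotated isoform 12, the latter with 6 counts in Müller glia. The annotation used here holds models only for isoforms with a count in rods, so the exons of these 3 isoforms are not described. With annotated isoforms alone, the ratio of Müller glia to the next class was 31.9.

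Of 7 other genes of glutamate and ammonia handling, 6 had at least 20 counts in a class, 0 met the 2-fold rule and 2 were highest in Müller glia, of which Glud1, glutamate dehydrogenase, was at 1.96 CPM there and 1.14 CPM in amacrine cells. Slc1a2, the transporter GLT-1, was at 20.2 CPM in Müller glia and 120 CPM in cones. Slc38a3, a glutamine transporter, was at 12.4 CPM in Müller glia and 36.7 CPM in rods.

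Aqp4 (ENSMUSG00000024411, chr18:15389496-15410982, minus strand) forms the water pores of glial endfeet. Its level was 935 CPM (911 to 959) in Müller glia, 16.4 CPM in bipolar cells, 13.8 CPM in rods, 10.9 CPM in amacrine cells and 8.35 CPM in cones, with 0 counts in ganglion cells. The ratio to the next class, 57.1 (52.0 to 62.8), was the largest of the 10 genes. The amacrine and cone intervals overlapped. Both isoforms of Aqp4 in the table are annotated and differ in the first exon. Isoform 1 starts with an exon of 52 nt and encodes 323 codons. Isoform 2 starts in an exon of 85 nt further downstream and encodes 301 codons, 22 fewer at the start, the difference known between the M1 and M23 forms of the channel. M23 is known for assembling into large arrays in the membrane and M1 for limiting them, and both can be translated from the longer transcript. Isoform 2 made up 872 of 5734 counts in Müller glia (15.2%, 14.3 to 16.2%), 17.5% in bipolar cells, 14.9% in rods and 13.1% in cones. Its share in amacrine cells was 7.05% (5.01 to 9.58%), the 1 class whose interval lay below that of Müller glia. Both models end at the same place, 3315 nt inside the annotated end of isoform 1.

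Kcnj10 (ENSMUSG00000044708, chr1:172341210-172374085, plus strand) carries the main potassium conductance of Müller glia. It was counted 39 times in Müller glia (6.36 CPM, 4.52 to 8.69), 13 times in rods (0.234 CPM), once each in bipolar cells and cones, and 0 times in amacrine and ganglion cells. Müller glia were 27.1 times (14.2 to 55.4) above rods, and below Müller glia all neighbouring intervals overlapped. The only isoform in the table is matched to the annotated transcript, but its model is 761 nt long against 5407 nt. It ends 4517 nt inside the annotated end and holds 648 of 1137 coding nt (57.0%), without the stop codon. Of the 12 models of annotated coding transcripts of the 10 genes, the other 11 held the whole coding sequence. Over all such models 7.89% lacked part of it and 3.61% ended before the stop codon.

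Of 9 further genes of potassium and water handling, 6 were counted at least 20 times in a class. The 2-fold rule was met by Kcnj13 and Dtna, and 3 genes were highest in Müller glia. Kcnj13, the inward rectifier Kir7.1, stood at 74.0 CPM, 69.3 times (48.1 to 103.2) above bipolar cells. Kcnj13 is also a channel of the pigment epithelium, whose markers were in the column as given above. Dtna, which encodes a dystrobrevin of the same endfoot complex as Aqp4, was at 4.57 CPM, 2.02 times (1.28 to 3.08) above amacrine cells. Dag1, which encodes dystroglycan and helps to anchor channels at endfeet, was at 6.52 CPM in Müller glia and 3.97 CPM in cones. Aqp1, the water channel known from photoreceptors and other cells, was at 102 CPM in rods and 4.89 CPM in Müller glia. Kcnj16 and Trpv4 had no isoform in the table.

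Car14 (ENSMUSG00000038526, chr3:95897768-95904691, minus strand) converts carbon dioxide and bicarbonate at the outer face of the membrane. Its level was 682 CPM (661 to 703) in Müller glia, 20.6 CPM in amacrine cells, 18.3 CPM in rods, 14.7 CPM in bipolar cells and 11.2 CPM in cones, with 0 counts in ganglion cells. Müller glia were 33.0 times (30.8 to 35.4) above amacrine cells. The intervals of amacrine cells and rods overlapped, as did those of bipolar cells and cones.

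The 3 isoforms of Car14 differ by 2 small exons and, for isoform 3, also in the extent of the first exon (63 against 366 nt) and the last exon (42 against 445 nt). The small exons are shown because they set the 3 isoforms apart. They are given on the minus strand of GRCm38, from the GENCODE M21 transcripts, with the exon in capitals and 15 bases of the neighbouring exons in lower case. The first lies at chr3:95901459-95901480 and the second at chr3:95898801-95898885.
Car14 22-nt exon: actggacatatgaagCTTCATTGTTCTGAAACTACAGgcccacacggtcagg
Car14 85-nt exon: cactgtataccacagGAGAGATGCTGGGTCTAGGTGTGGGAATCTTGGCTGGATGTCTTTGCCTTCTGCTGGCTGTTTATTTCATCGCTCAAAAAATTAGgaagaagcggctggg

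Isoform 1 has 11 exons, among them the 85-nt exon, and encodes 337 codons. It made up 90.24% of Müller glia counts, 92.2% of amacrine, 88.2% of rod, 69.5% of cone and 57.0% of bipolar counts. Isoform 2 is unannotated as a whole but its extra 22-nt exon is in an annotated transcript of the gene. Read from the annotated start codon, the frame of this isoform met a stop codon inside the 22-nt exon, after 29 codons. From the start codon that M21 gives to the transcript with the 22-nt exon, 321 codons were open to the same stop codon as in isoform 1. This isoform took 401 of 4182 counts in Müller glia (9.59%, 8.71 to 10.5%), 7.83% in amacrine cells, 11.7% in rods and 13.4% in cones. In bipolar cells it took 5.63% (3.64 to 8.27%), where the interval lay below that of Müller glia. Counted over isoforms 1 and 2 alone, it took 24 of 267 counts in bipolar cells and 401 of 4175 in Müller glia. The counts of isoform 3, given below, thus lower its bipolar share.

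The third Car14 isoform was found mostly outside Müller glia. It is a shorter model of 10 exons and 912 nt that skips the 85-nt exon, a join that M21 does not hold. As 85 nt are not a whole number of codons, the reading frame shifts at this join. This isoform ends 42 nt into the last exon, before the annotated stop codon, and no stop codon was met from the annotated start codon. It accounted for 159 of 426 counts in bipolar cells (37.3%, 32.7 to 42.1%) and 14 of 82 in cones (17.1%, 9.66 to 27.0%). In Müller glia it had 7 of 4182 counts (0.167%), in rods 1 of 1016, and in amacrine cells 0 of 996, where a limit of 3 counts is a share of 0.301%. The share intervals of bipolar cells and cones thus lay above that of Müller glia for this isoform. These are shares of unlike gene levels, at 14.7 CPM in bipolar cells, 11.2 CPM in cones and 682 CPM in Müller glia. The level of isoform 3 itself was 5.48 CPM in bipolar cells, 1.92 CPM in cones and 1.14 CPM in Müller glia, the last 2 on 14 and 7 counts. The share intervals take each read as 1 count, while several reads can come from 1 molecule. The leading isoform was still isoform 1 in each class.

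**Figure D2:**
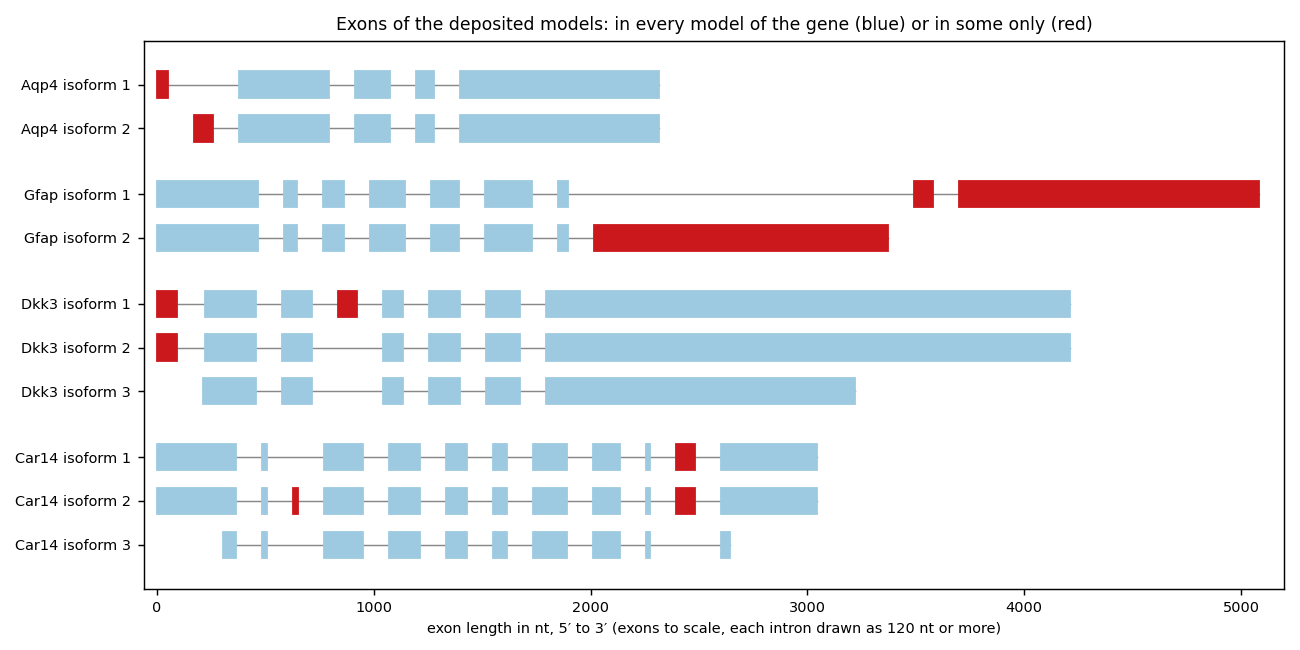
Exons of the deposited models of 4 genes, 5′ to 3′, with exon length in nt to scale and introns shortened. Blue exons are in every model of the gene, also where their extent differs between models, as in the first and last exons of Car14. Red ones are in some models only: the first exons of Aqp4 and the ends of Gfap. In Dkk3 they are the first exon and the 84-nt exon, and in Car14 the 22-nt and 85-nt exons.

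Among 8 other genes of acid-base balance and lactate transport, 6 had at least 20 counts in a class, 0 met the 2-fold rule and 1 was highest in Müller glia. That was Slc16a1, the monocarboxylate transporter MCT1, at 49.9 CPM against 42.5 CPM in rods, a ratio of 1.17 (1.04 to 1.32). Car2, the cytosolic carbonic anhydrase, was at 27.2 CPM in Müller glia and 117 CPM in rods. Slc16a3, the transporter MCT4, was at 16.6 CPM in Müller glia and 99.2 CPM in bipolar cells. Of 4 genes for retinoid handling, 3 met the 2-fold rule, which 9.65% of all genes tested met. These were Rlbp1 at 1736 CPM, 37.7 times above rods, Rgr, an opsin of Müller glia and pigment epithelium, at 304 CPM, 171 times (137 to 214) above amacrine cells, and the retinol dehydrogenase Rdh10 at 39.5 CPM, 35.3 times above rods. All 3 are also known from pigment epithelium, whose markers Rpe65 and Ttr were in the column at 58.4 and 8443 CPM, and the part of those cells was not tested.

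Apoe (ENSMUSG00000002985, chr7:19696109-19699188, minus strand) encodes the main lipid carrier of the central nervous system. Its level was 39298 CPM (39142 to 39456) in Müller glia, 1113 CPM in rods, 692 CPM in amacrine cells, 350.1 CPM in cones, 292 CPM in bipolar cells and 8.55 CPM in ganglion cells. Müller glia were 35.3 times (35.0 to 35.6) above rods, and no neighbouring intervals overlapped. All 347135 counts were on 1 annotated isoform of 4 exons with the whole coding sequence of 311 codons, where M21 lists 11 transcripts. In rods, where Apoe was second highest, its level was 2.83% of that in Müller glia. There the microglia markers summed to 44.9% of their Müller glia level and the 6 other Müller glia markers to 2.91%. Which cells the Apoe counts of the rod column came from was not tested.

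Clu (ENSMUSG00000022037, chr14:65968483-65981547, plus strand) encodes a secreted chaperone that also travels with lipoproteins. It was at 6980.2 CPM (6914 to 7047) in Müller glia, 384 CPM in cones, 193 CPM in amacrine cells, 178 CPM in rods, 125 CPM in bipolar cells and 34.5 CPM in ganglion cells. The ratio to cones was 18.2 (17.5 to 18.9). Clu was the only one of the 10 genes with cones as its next class, at 5.51% of the Müller glia level, and no neighbouring intervals overlapped. Its 68548 counts were all on 1 annotated isoform of 9 exons and 448 codons. Of 8 further genes for lipid carriers and receptors, all 8 had at least 20 counts in a class, and 2 met the 2-fold rule and were highest in Müller glia. Lcat, which esterifies cholesterol on lipoproteins, was at 29.0 CPM, 32.4 times (21.4 to 50.9) above bipolar cells. Apod, another lipid carrier, was at 3.42 CPM against 0.0689 CPM (2 counts) in bipolar cells, a ratio of 49.7 with an interval from 12.1 to 437. The cholesterol exporter Abcg1 was at 2.45 CPM in Müller glia and 23.5 CPM in rods.

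Dkk3 (ENSMUSG00000030772, chr7:112116017-112159057, minus strand) encodes a secreted glycoprotein of the Dickkopf family, whose better known members block Wnt receptors. It departed from the other 9 genes. Its level was 58.1 CPM (56.0 to 60.3) in amacrine cells and 48.8 CPM (43.4 to 54.6) in Müller glia, a ratio of Müller glia to amacrine cells of 0.839 (0.742 to 0.946). It was 8.26 CPM in ganglion cells, 3.57 CPM in rods, 1.83 CPM in bipolar cells and 0.684 CPM (5 counts) in cones. Among all genes with at least 20 counts in a class, 21.3% were highest in amacrine cells. The order of the top pair depends on the scale. With column factors from the median of ratios, Müller glia stood at 57.4 CPM and amacrine cells at 51.0 CPM, a ratio of 1.13. Amacrine cells stayed higher with the trimmed mean of M-values, at a ratio of 0.934, and with annotated isoforms only, at 0.702. On column totals both classes were above the other 4.

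Of the 5 genes with more than 1 isoform, Dkk3 had the lowest share on its leading isoform in Müller glia. The exon that sets them apart is printed as the one above, with the exon in capitals, and lies at chr7:112148961-112149044 on the minus strand of GRCm38.
Dkk3 84-nt exon: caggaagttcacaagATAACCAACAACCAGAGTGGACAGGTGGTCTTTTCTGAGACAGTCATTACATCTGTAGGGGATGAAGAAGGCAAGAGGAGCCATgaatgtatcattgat

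The annotated isoform 1, with 8 exons and 349 codons, led wherever Dkk3 had 20 counts or more. It made up 186 of 299 counts in Müller glia (62.2%, 56.4 to 67.7%), 74.4% (72.7 to 76.0%) in amacrine cells, 75.8% in rods, 73.6% in bipolar cells, and 29 of 29 in ganglion cells. Isoforms 2 and 3 are unannotated and both lack the 84-nt exon, a join that M21 does not hold. As 84 nt are 28 whole codons, the reading frame runs on and 321 codons lead to the same stop codon. Isoform 3 in addition starts 11 nt before the second exon of isoform 1 and ends 990 nt earlier. The share without the 84-nt exon was 113 of 299 counts in Müller glia (37.8%, 32.3 to 43.6%) and 718 of 2803 in amacrine cells (25.6%, 24.0 to 27.3%). It was 24.2% (18.4 to 30.8%) in rods, 26.4% (15.3 to 40.3%) in bipolar cells and 0 of 29 in ganglion cells, where a limit of 3 counts is 10.3%.

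Müller glia and amacrine cells divided these counts differently between isoforms 2 and 3. Isoform 2 had 36 counts in Müller glia (12%) and 540 in amacrine cells (19.3%). Isoform 3 had 77 in Müller glia (25.8%, 20.9 to 31.1%) and 178 in amacrine cells (6.35%, 5.48 to 7.32%), and 74.1% of its summed CPM lay in Müller glia. So the annotated isoform was higher in amacrine cells, at 43.2 against 30.3 CPM. Isoform 3 was higher in Müller glia, at 12.6 against 3.69 CPM. Whether isoform 3, which is shorter at both ends, is a whole transcript was not tested. Of 6 other genes for Dickkopf proteins and their receptors, 3 had at least 20 counts in a class, and 0 of them met the 2-fold rule or were highest in Müller glia. Dkk1 was at 1.14 CPM in Müller glia and 2.72 CPM in bipolar cells, and Dkk2 and Dkkl1 had 0 counts in Müller glia.

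**Figure D3:**
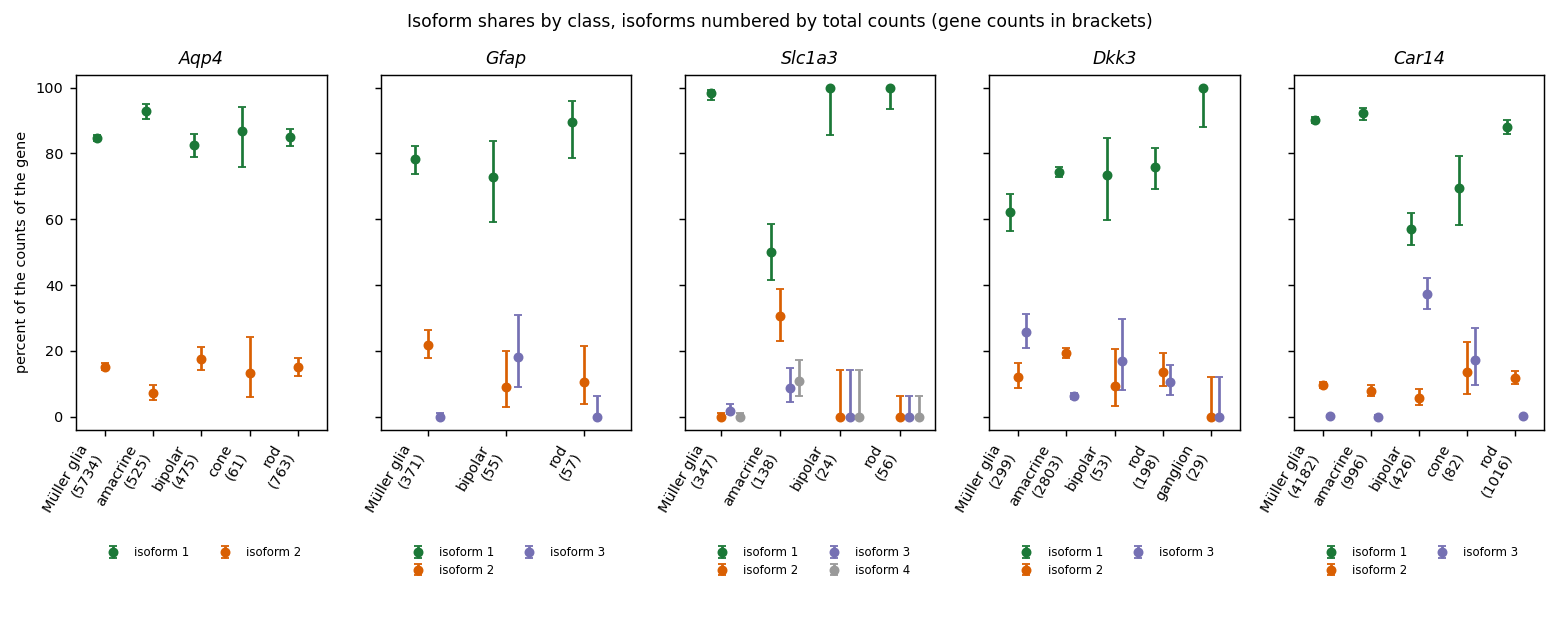
Share of each isoform in the counts of its gene, in percent, for the 5 genes with more than 1 isoform, where a class had 20 counts or more of it (in brackets). Bars are exact Clopper-Pearson 95% intervals. In amacrine cells Slc1a3 isoform 1 is at 50%, in bipolar cells Car14 isoform 3 reaches 37.3%, and in Müller glia Dkk3 isoform 3 reaches 25.8%.

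Vim (ENSMUSG00000026728, chr2:13573927-13582826, plus strand) encodes the filament protein that Müller glia hold at all times. Its level was 2571 CPM (2531 to 2612) in Müller glia, 81.9 CPM in bipolar cells, 56.6 CPM in rods, 48.0 CPM in cones and 10.8 CPM in amacrine cells, with 0 counts in ganglion cells. Müller glia were 31.4 times (30.1 to 32.8) above bipolar cells, and no neighbouring intervals overlapped. All 22151 counts were on 1 annotated isoform of 9 exons and 466 codons.

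Gfap (ENSMUSG00000020932, chr11:102887336-102900912, minus strand) encodes the filament protein of astrocytes, which Müller glia are known to make more of after injury. It was at 60.5 CPM (54.5 to 67.0) in Müller glia, 1.90 CPM in bipolar cells, 1.37 CPM in cones, 1.03 CPM in rods and 0.0622 CPM (3 counts) in amacrine cells, with 0 counts in ganglion cells. The ratio of Müller glia to bipolar cells was 31.9 (24.0 to 43.2). The intervals of bipolar cells and cones overlapped, as did those of cones and rods and those of amacrine and ganglion cells. The sum of the 3 astrocyte markers in the table, S100b, Aldh1l1 and Gja1, was 60.3 CPM in the same column, and all 3 met the 2-fold rule. Whether the Gfap counts came from Müller glia or from astrocytes typed with them was not tested.

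The annotated isoforms of Gfap differ in their last exons, which decide the tail of the protein, known as GFAP alpha for the 9-exon form and GFAP delta for the 8-exon form. The 9-exon isoform encodes 430 codons and took 290 of 371 Müller glia counts (78.2%, 73.6 to 82.3%). The 8-exon isoform, of 428 codons, took the other 81 (21.8%, 17.7 to 26.4%). In rods the 8-exon share was 6 of 57 (10.5%, 3.96 to 21.5%) and in bipolar cells 5 of 55 (9.09%, 3.02 to 20.0%), so its interval overlapped that of Müller glia in both. An unannotated isoform with no model had 10 counts, all in bipolar cells (18.2% of the gene there). Vim and Gfap lie on different chromosomes, yet the second to the seventh exon are of equal size in the Vim model and both Gfap models, with 61, 96, 162, 126, 221 and 44 nt. The 9-exon Gfap model shares 7 exon sizes with Vim, as its exon 8 is of 86 nt in both. This exon pattern is a known trait of the filament family to which both proteins belong.

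Of 8 other genes for filaments and gliosis, 6 had at least 20 counts in a class, 4 met the 2-fold rule and 5 were highest in Müller glia, against 9.65% and 18% of all genes tested. Socs3, a brake on cytokine signalling, was at 121 CPM, 3.08 times (2.68 to 3.54) above cones. Lcn2, a secreted protein of reactive glia, was at 84.9 CPM, 4.47 times (3.70 to 5.42) above cones. Nes, the filament protein nestin, was at 10.3 CPM against 0.137 CPM (1 count) in cones, a ratio of 75.1 with an interval from 13 to 3011. The fourth was Cd44, a receptor for hyaluronan, at 7.01 CPM, 7.20 times (4.65 to 11.1) above amacrine cells. Over all 7 related lists, 44 of 50 genes were in the table and 39 had at least 20 counts in a class. Of these 39, 11 met the 2-fold rule and 16 were highest in Müller glia, against 9.65% and 18% of all 12099 genes tested.

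In the neuron columns, the 9 genes highest in Müller glia were found at a few percent of their Müller glia level, though not at the same percent. The median over the 9 genes was 2.55% in rods, 1.79% in bipolar cells, 1.76% in amacrine cells, 1.65% in cones and 0% in ganglion cells. The summed level of the 6 other Müller glia markers was 2.91% in rods, 2.65% in bipolar cells, 3.45% in amacrine cells, 1.73% in cones and 1.67% in ganglion cells. A percent of a sum and a median over genes are unlike measures. Prdx6 made up 3822 of the 6476 CPM in Müller glia, 173 of 223 CPM in amacrine cells and 98.0 of 108 CPM in ganglion cells. Rlbp1, Sox9, Hes1 and Abca8a had 0 counts in ganglion cells. In amacrine cells the 9 genes ranged from 0% for Kcnj10 (0 counts, where a limit of 3 counts is 0.978%), 0.103% for Gfap (3 counts) and 0.419% for Vim to 5.06% for Slc1a3 and 9.52% for Glul. In bipolar cells the range was from 0.542% for Kcnj10 to 3.19% for Vim, in cones from 0.484% for Slc1a3 to 5.51% for Clu, and in rods from 1.47% for Aqp4 to 5.72% for Glul. In ganglion cells 6 of the 9 genes had 0 counts, Glul was at 2.53%, Clu at 0.494% and Apoe at 0.0217%. The 6 rod markers also had 0 counts in the ganglion cell column.

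Neuronal markers were measured in turn in the glial column. In the Müller glia column, the rod markers summed to 6.86% of their rod level, the bipolar markers to 3.11% of their bipolar level, the 6 amacrine markers to 2.79% (0.346% without Pax6, which is also known from Müller glia and was at 27.9 CPM), the cone markers to 0.556% and the ganglion cell markers to 0.289% of their own. Of the rod markers, 2075 CPM were counted in Müller glia, while the bipolar markers Grm6 and Trpm1, the amacrine markers Slc6a9 and Tfap2a and the ganglion cell marker Pou4f1 were at 0. The part of free RNA and of mixed cells in the low levels was not tested.

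**Figure D4:**
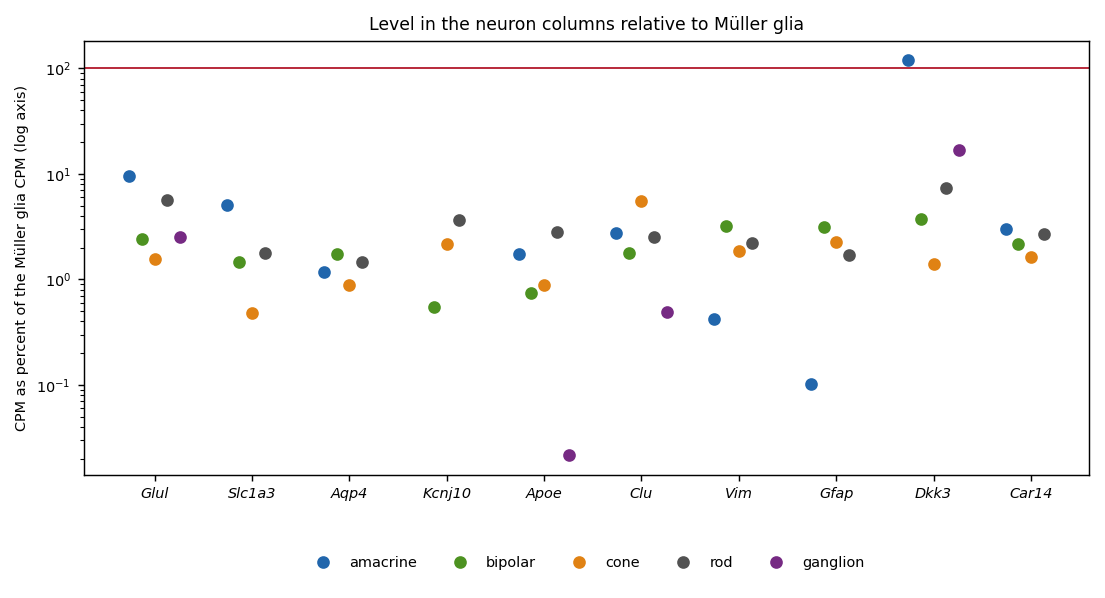
Level of each gene in the 5 neuron columns as a percent of its Müller glia level, on a log axis, with classes at 0 counts left out and the line at 100% marking Müller glia. Glul in amacrine cells (9.52%), Clu in cones (5.51%) and Gfap in amacrine cells (0.103%) stand apart from the other points of their class, and Dkk3 in amacrine cells lies above the line at 119%, which scaling by the median of ratios brings below it.

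At the level of single isoforms, 12 of the 20 had at least 80% of their summed CPM in Müller glia, from 9 of the 10 genes, where 3.93% of 39072 isoforms with at least 10 counts did. The other 8 were the 3 of Dkk3, isoform 3 of Car14, isoform 3 of Gfap and 3 of Slc1a3. Of the 20 isoforms, 13 are annotated and 7 are not, and the unannotated ones hold 0.365% of the counts. Of the 10 genes, 5 have 1 isoform. The leading isoform of a gene was the same in Müller glia and in each class compared: 0 of 5 genes in rods, 0 of 5 in bipolar cells, 0 of 4 in amacrine cells, 0 of 2 in cones and 0 of 1 in ganglion cells met the rule for another leading isoform, which asks for at least 20 counts in both classes and 50 percentage points. Among all genes compared, 4.54% met it in rods, 4.53% in bipolar cells, 9.26% in amacrine cells, 4.29% in cones and 13.1% in ganglion cells.

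The genes closest in class pattern were sought among 5226 genes with at least 1000 counts, by the share of summed CPM that would have to move between the 6 columns to make them equal. Gfap was closest to Vim, 0.785 percentage points apart, and both had Pdlim3 among their closest 3, at 1.22 and 0.904 points. Car14 was closest to Efemp1 at 0.648 points, Aqp4 to Kcne1l at 0.818 points and Apoe to Espn at 0.858 points, with Rlbp1 next but one at 1.18. Slc1a3 was closest to Fkbp11 at 1.43 points, Kcnj10 to Cbr3 at 1.87 points, with Apoe second at 1.99, Glul to Fxyd6 at 2.70 points and Clu to Mdk at 2.90 points. Dkk3 had no gene as close, with Ptn at 5.45 points, Hebp1 at 6.43 and Cthrc1 at 7.93. Ptn had 43.3% of its summed CPM in Müller glia and 44.0% in amacrine cells, and Dkk3 40.2% and 47.9%. These distances are descriptions over 6 pooled columns and carry no interval for counting error. Kcnj10, Gfap and Slc1a3 themselves had 54, 496 and 567 counts, below the minimum set for the genes compared with them. For Kcnj10 the 1 count in cones made up 2.02% of its summed CPM, so the order of its closest genes is uncertain.

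The stretch before the start of transcription was looked at for letters shared by genes with this class pattern. RefSeq promoter entries on GRCm38.p6 were matched for 7 of the 10 genes, with 9 entries, and the 250 bases before each start were searched on both strands for 4 motifs. CCAAT was in at least 1 entry of 4 genes and in 33.8% of all 32851 promoters, and TATAAA in 3 genes and 12.4%. The SOX core ACAAT was in 2 genes and 27.7%, and the NFI half-site TTGGCA in 1 gene and 12.3%. The gene counts take a match in any entry of a gene, while the percents are over single entries, so they are unlike measures. Apoe had several entries, and its TATAAA and TTGGCA matches lay only before starts that fall inside its deposited model. The entries of Glul and Vim were picked after the matches were seen, as examples that hold a match and whose deposited models start 15 and 11 nt after the RefSeq start. They are shown with the motifs in capitals, at chr1:153899679-153899928 and chr2:13574061-13574310, both on the plus strand.
Glul promoter: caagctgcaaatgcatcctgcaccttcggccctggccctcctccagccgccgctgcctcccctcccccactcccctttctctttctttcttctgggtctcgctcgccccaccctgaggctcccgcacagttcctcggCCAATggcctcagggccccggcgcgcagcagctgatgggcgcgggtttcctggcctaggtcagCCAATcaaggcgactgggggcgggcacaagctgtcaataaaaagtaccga
Vim promoter: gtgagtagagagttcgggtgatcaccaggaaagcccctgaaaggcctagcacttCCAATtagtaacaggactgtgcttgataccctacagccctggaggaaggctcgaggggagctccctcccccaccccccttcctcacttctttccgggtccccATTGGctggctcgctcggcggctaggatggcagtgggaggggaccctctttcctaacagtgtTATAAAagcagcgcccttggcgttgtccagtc

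Glul has CCAAT at 113 and 50 bases before its start. Vim has it at 196 bases, the reverse form at 94 bases and TATAAA at 32 bases. The entries of Car14 and Gfap held none of the 4 motifs in this window. A match is a run of letters and no measured binding.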

How the data were processed

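The study measured full-length transcripts of single retinal cells in 4 libraries. The authors deposited whole-number counts per isoform in 6 cell-class columns and an annotation of 36426 transcript models, with FLAIR, an isoform builder for long reads, in its source field. Whether reads were collapsed to molecules, which libraries entered a column, and how cells were called, typed and screened for doublets are not given in the sources used here. Models cover only isoforms with a count in rods, and 7899 isoforms have none. The build is mm10, per the submitters' processing notes, which name no role for it. Of 122601 splice junctions in the models, 94.4% were in GENCODE M21 on GRCm38, and of the 70 of the members, 68.

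Deposited counts were summed per Ensembl gene, 13448 of 13452 with a symbol, and scaled to 1000000 per column. No test was possible with 1 column per class, and the planned comparison of enrichments was not run because the columns carry no library. Rules of size were used instead. These were a 2-fold excess of Müller glia over the next class with at least 20 counts in a class, at least 80% of summed CPM in 1 class with at least 10 counts, and another leading isoform by at least 50 percentage points. Shares carry exact Clopper-Pearson 95% intervals and levels exact Poisson ones, for counting error only, as several reads can come from 1 molecule. Named were all 10 members, their leading and most counted unannotated isoforms, the 3 genes nearest in class pattern, and up to 3 genes per related list with the highest Müller glia CPM. Marker genes were named as examples. Results for 1 related gene and 1 sequence are not reported here. Cd44, Dtna, Glud1, Kcnj16, Trpv4, Dkk2 and Dkkl1 were named outside this rule, after their values were seen. Members, lists and rules were chosen with earlier results of these data known. Alternatives were scaling by the trimmed mean of M-values or the median of ratios, both computed in Python, annotated isoforms only and a 5-fold limit. Others were no ganglion cell column, equal depth, other minimums and shares, and isoforms with the same introns summed, among isoforms with a model only. Python 3.11.15, numpy 2.4.6, pandas 2.3.3, scipy 1.17.1 and matplotlib 3.10.9 were used.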

Additional observations from a re-analysis of the deposited data

How the results depend on the processing

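The count of 9 genes at least 2-fold above the next class was the same under all 6 alternatives. These included equal depth, annotated isoforms only, a 5-fold limit and leaving out the ganglion cell column. The 5-fold limit could not change the count, as the smallest of the 9 ratios was 10.5. Nor could leaving out ganglion cells, which were never the next class. The median ratio of Müller glia to the next class, 29.3, was 36.5 with the median of ratios. That scaling moved the median log2 ratio over all genes by 0.28, and the trimmed mean of M-values by 0.15, with 11.5% and 10.4% of all genes past the 2-fold rule. The Dkk3 ratio of Müller glia to amacrine cells, 0.839, turned to 1.13 with the median of ratios and stayed below 1 under its other alternatives. The 12 isoforms with at least 80% of their summed CPM in Müller glia came down to 1 at a share of 95%, a stricter limit by construction. The median share of the leading isoform in Müller glia, 84.8% over the 5 genes with more than 1 isoform, was 100% with annotated isoforms only, where Dkk3, Car14 and Slc1a3 keep 1 isoform in Müller glia. No gene met the rule for another leading isoform under any of its 3 alternatives. Summing isoforms with the same introns used only isoforms with a model. That left Slc1a3 with 1 isoform, so this alternative could not find another leading isoform for it. Of 78 comparisons with an alternative in all, 57 were within the margin set for them, 20 moved beyond it and 1 reversed. The 57 include every rerun without the ganglion cell column, which could change no ratio. No library could be left out. No paired analysis was possible because libraries are not separated in the counts. The smallest columns limit the low values: Kcnj10 rests on 39 counts in Müller glia, and 3 counts, the limit used for a count of 0, make 0.855 CPM in ganglion cells.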
